A study of Mus musculus with 8 samples.

Results

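The genes of intraepithelial lymphocytes and T cells were followed as a measure of the lymphocytes that came along in preparations of mouse enterocytes. The set held 10 genes, Cd3e, Cd3g, Cd8a, Cd8b1, Gzma, Gzmb, Itgae, Ccl5, Ptprc and Cd7. They were chosen by name, as every probe set whose single platform symbol was one of these. All 10 symbols were found, on 11 of the 18443 probe sets, with 2 for Cd8a and 1 for each of the others, among 10401 genes with a symbol of their own. The preparations came from the small intestine of male C57BL/6 mice, 2.5 to 3.0 months old. In IE-Cpr-null mice the intestinal epithelium has no NADPH-cytochrome P450 reductase (Cpr), the electron donor of microsomal P450 enzymes. Wild-type (WT) littermates were the controls. The labels do not name the promoter of the Cre transgene or the alleles that the littermates carry. There were 4 arrays of each genotype, every one a pool of RNA from 2 mice (8 mice per genotype), and the errors below describe differences among pools.

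Intraepithelial lymphocytes sit between the epithelial cells of the gut and are released with them when enterocytes are isolated. Most are T cells, many carry the CD8 co-receptor, and many are stocked with granzymes for killing infected or damaged epithelial cells. CD103, an integrin alpha chain that Itgae encodes, holds them to E-cadherin on the enterocyte. In a preparation of this kind their transcripts report on a small admixture, and fewer lymphocytes cannot be told apart from less RNA per lymphocyte.

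Cd3g and both granzyme genes varied closely together over the arrays (r between 0.93 and 1.00, given below). Cd8a, Cd7 and Ccl5 did so as well (r between 0.93 and 0.97), and why these genes varied together was not tested. The 250 bases before the starts of Cd3g, Gzma and Gzmb are shown here (RefSeq, GRCm38.p6, minus strand, 5′ to 3′). The windows are chr9:44980432-44980681 for Cd3g, chr13:113100982-113101231 for Gzma and chr14:56262335-56262584 for Gzmb, on the strand of the gene. Capitals mark matches to the RUNX core (TGTGGT or its reverse complement ACCACA) and to the AP-1 motif (TGANTCA).
Cd3g: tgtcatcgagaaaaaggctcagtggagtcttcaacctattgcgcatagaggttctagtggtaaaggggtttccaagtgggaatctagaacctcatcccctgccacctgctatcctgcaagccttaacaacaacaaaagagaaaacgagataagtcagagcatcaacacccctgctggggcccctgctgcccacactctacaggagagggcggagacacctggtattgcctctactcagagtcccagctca
Gzma: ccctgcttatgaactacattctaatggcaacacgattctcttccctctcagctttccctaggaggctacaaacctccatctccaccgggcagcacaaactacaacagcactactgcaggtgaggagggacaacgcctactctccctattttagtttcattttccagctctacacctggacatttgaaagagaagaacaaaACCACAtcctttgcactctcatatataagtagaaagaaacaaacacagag
Gzmb: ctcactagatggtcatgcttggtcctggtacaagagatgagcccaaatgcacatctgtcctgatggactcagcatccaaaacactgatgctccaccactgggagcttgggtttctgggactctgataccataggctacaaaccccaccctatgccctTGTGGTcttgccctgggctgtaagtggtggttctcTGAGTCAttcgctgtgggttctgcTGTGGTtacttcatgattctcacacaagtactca
The Gzmb window held 2 RUNX core matches, beginning at -93 and -34, and 1 AP-1 match at -58, counted back from -1 for the last base before the start. The Gzma window held 1 RUNX core match, at -50, and the Cd3g window neither motif. Over 32851 promoter windows of the same length, 14.0% held the RUNX core and 6.75% the AP-1 motif. A match is a description of the letters, not a binding site, and promoter windows were found for 6 of the 10 genes.

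Values were deposited as log2 signals with the WT median of each probe set set to 0, so that no level of expression was known and a defining marker could not be checked for presence. Array medians over all probe sets ran from -0.025 to 0.036. Single arrays stood apart through transcripts of other tissues. Stromal and smooth muscle genes averaged 4.83 on IE-Cpr-null replicate 1, while WT replicate 2 had a mean of 2.07. Hepatocyte genes averaged 6.00 and 3.71 on IE-Cpr-null replicates 2 and 3, and pancreatic acinar genes lay between -5.09 and -1.91 in IE-Cpr-null and between -4.87 and 1.57 in WT. The deleted gene is not analysed here, and its transcript could not be used to check the labels.

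The comparison of the genotypes asked whether the preparations differed in lymphocyte transcripts. Of the 10 genes, 9 had a higher mean in IE-Cpr-null and 1, Ptprc, a lower one, where 57.6% of all genes had a higher mean. None of the 11 probe sets passed an adjusted p of 0.05 in limma (0 of 11, and 0 at an unadjusted p under 0.05; 0.0217% of all probe sets passed, and 2.92% were higher at an unadjusted p under 0.05). In no probe set (0 of 11) did every IE-Cpr-null array lie above every WT array, against 1.64% of all probe sets. The median difference over the 11 probe sets was 0.15 on the log2 scale, beside 0.016 over all probe sets. It was 0.24 without IE-Cpr-null replicate 1, 0.10 without IE-Cpr-null replicate 2, 0.25 without the muscle-rich arrays (WT replicate 2 and IE-Cpr-null replicate 1) and 0.080 without the hepatocyte-rich arrays (IE-Cpr-null replicates 2 and 3).

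**Figure D1:**
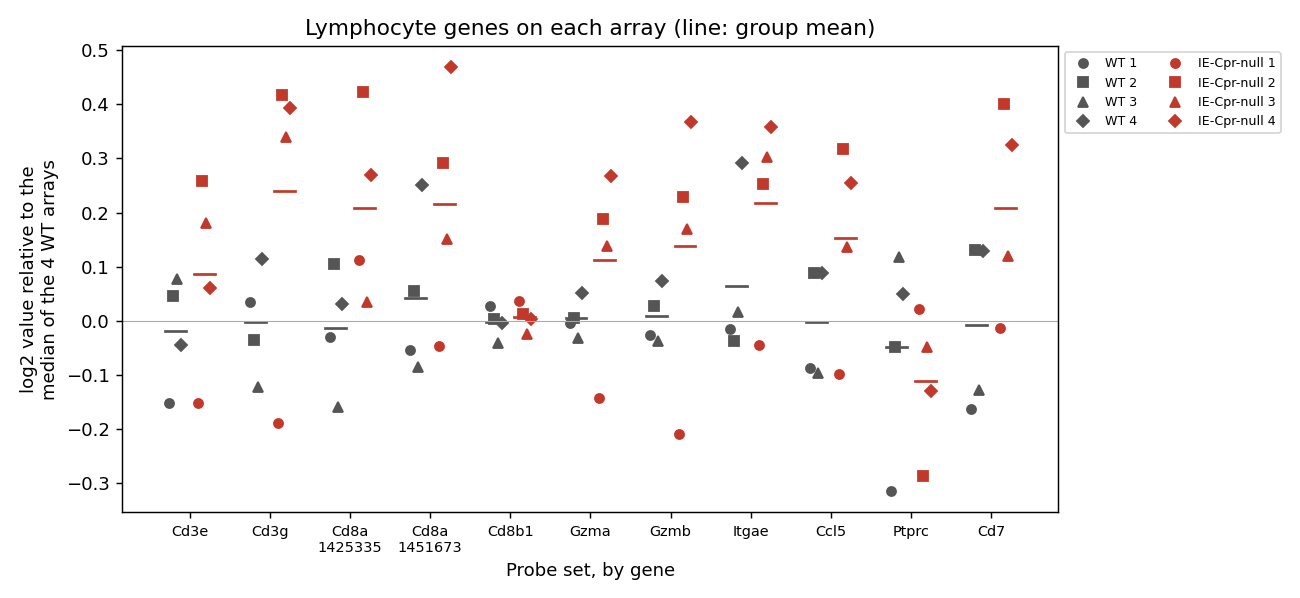
Each point is the log2 value of 1 probe set on 1 array, where 0 is the WT median; grey is WT, red is IE-Cpr-null, marker shapes give the replicate and lines the group means. For Cd3g, IE-Cpr-null replicate 1 lies at -0.19, below the WT arrays, and the other 3 IE-Cpr-null arrays at 0.34 to 0.42, above them.

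Cd3g and Cd3e encode the gamma and epsilon chains of CD3, which pass the signal of the T cell receptor into the cell. Cd3g was at 0.035, -0.035, -0.12 and 0.11 on WT replicates 1 to 4, and at -0.19, 0.42, 0.34 and 0.39 on IE-Cpr-null replicates 1 to 4. IE-Cpr-null replicate 1 was thus the lowest of all 8 arrays and the other 3 IE-Cpr-null arrays the highest. The difference was 0.24 (SE 0.139, n = 4 pools per genotype), a 1.18-fold change with a 95% interval of 0.945 to 1.48 (limma adjusted p = 0.804). Cd3e stood at -0.15, 0.045, 0.078 and -0.045 on the WT arrays and at -0.15, 0.26, 0.18 and 0.060 on the IE-Cpr-null arrays, a difference of 0.11 (SE 0.0964, adjusted p = 0.86 in limma). Its groups overlapped through IE-Cpr-null replicates 1 and 4, and its difference was -0.028 without the hepatocyte-rich arrays.

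Cd8a encodes the alpha chain of the CD8 co-receptor, which as a homodimer is typical of many intraepithelial lymphocytes, and Cd8b1 the beta chain of the conventional CD8 heterodimer. The Cd8a probe set 1425335_at read -0.031, 0.11, -0.16 and 0.031 in WT, and in IE-Cpr-null 0.11, 0.42, 0.034 and 0.27. Its difference was 0.22 (SE 0.096, 1.17-fold, interval 1.00 to 1.36), with the smallest limma p of the 11 probe sets (unadjusted 0.0504, adjusted p = 0.676). The second, 1451673_at, read -0.054, 0.054, -0.086 and 0.25 in WT, and in IE-Cpr-null -0.047, 0.29, 0.15 and 0.47, a difference of 0.18 (SE 0.122). Both were highest on an IE-Cpr-null array, on replicate 2 in the first and on replicate 4 in the second, and in both the groups overlapped. Cd8b1 differed by 0.0098 (SE 0.0326) and stayed between -0.041 and 0.037 on all 8 arrays. Its values followed the array medians (r = 0.93 over 8 arrays, SD 0.026), whereas r was between -0.62 and 0.48 for the other 10 probe sets. Of all genes, 17.6% followed the array medians as closely (r of at least 0.9 and an SD under 0.1). The signal of Cd8b1 over background is unknown, and its flat values do not show that the transcript was steady.

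Gzma and Gzmb encode granzymes A and B, serine proteases of the cytotoxic granule. Gzma was at -0.0047, 0.0047, -0.032 and 0.051 in WT, and in IE-Cpr-null at -0.14, 0.19, 0.14 and 0.27. Gzmb was at -0.026, 0.026, -0.039 and 0.073 in WT, and in IE-Cpr-null at -0.21, 0.23, 0.17 and 0.37. For both, IE-Cpr-null replicate 1 lay below every WT array and replicates 2 to 4 above every WT array, and the WT arrays were close to each other. The SD among IE-Cpr-null arrays was 0.179 for Gzma and 0.247 for Gzmb, against 0.0343 and 0.0513 in WT. A wider spread on the IE-Cpr-null arrays was not limited to these genes. Over all probe sets the interquartile range was 0.12 to 0.20 on them and 0.061 to 0.10 on the WT arrays. The differences were 0.11 for Gzma (SE 0.0858, 1.08-fold, interval 0.938 to 1.24) and 0.13 for Gzmb (SE 0.116, 1.09-fold, interval 0.908 to 1.32), both with a limma adjusted p of 0.86.

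Itgae encodes the integrin alpha chain CD103 and Ccl5 the chemokine RANTES, which cytotoxic T cells hold ready. Itgae was at -0.017, -0.039, 0.017 and 0.29 in WT, and in IE-Cpr-null at -0.044, 0.25, 0.30 and 0.36. Its high WT replicate 4 fell among the IE-Cpr-null values. Ccl5 was at -0.088, 0.088, -0.096 and 0.088 in WT, and in IE-Cpr-null at -0.099, 0.32, 0.14 and 0.26. Its IE-Cpr-null replicates 2 to 4 were the highest of all arrays. Replicate 1 was the lowest, by a narrow margin (-0.0990 against -0.0963 on WT replicate 3). The difference was 0.15 for each (SE 0.109 for Itgae and 0.0983 for Ccl5), with limma adjusted p of 0.86 and 0.847.

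Cd7 encodes a surface glycoprotein of T and natural killer cells. It was at -0.16, 0.13, -0.13 and 0.13 in WT, and in IE-Cpr-null at -0.015, 0.40, 0.12 and 0.33, a difference of 0.22 (SE 0.114, 1.16-fold, interval 0.966 to 1.40, limma adjusted p = 0.774). Only IE-Cpr-null replicates 2 and 4 were above every WT array. Ptprc, which encodes the CD45 phosphatase of all leukocytes, did not share this order. It was at -0.32, -0.049, 0.12 and 0.049 in WT, and in IE-Cpr-null at 0.021, -0.29, -0.048 and -0.13, so that IE-Cpr-null replicate 1 was the highest of its group. Its difference was -0.062 (SE 0.107, 0.958-fold, interval 0.806 to 1.14). Over the 11 probe sets the upper bounds of the intervals lay between 1.06-fold and 1.48-fold.

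**Figure D2:**
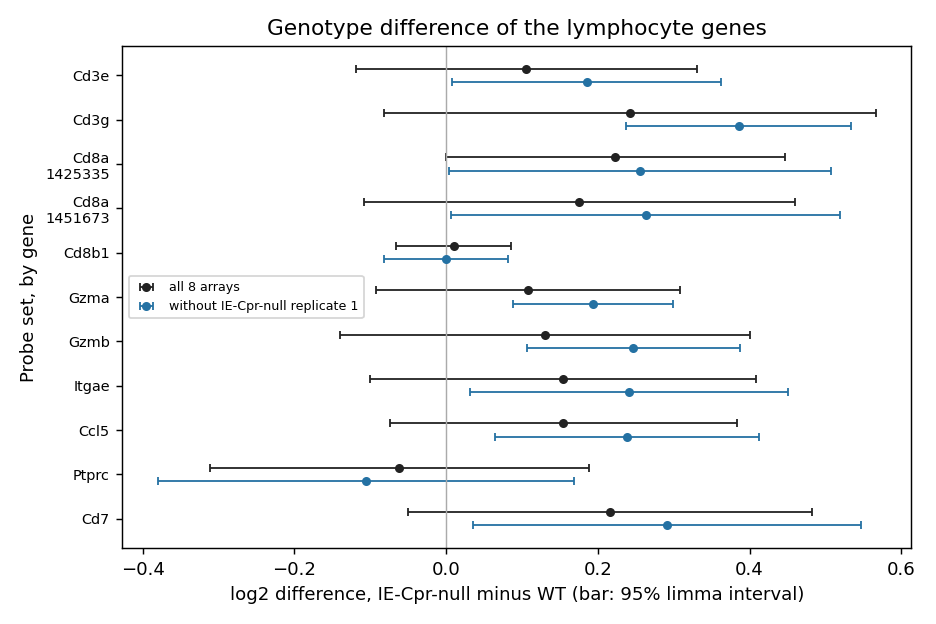
Points are log2 differences, IE-Cpr-null minus WT, and bars their 95% limma intervals, for each probe set with all 8 arrays (black) and without IE-Cpr-null replicate 1 (blue). Every black bar holds 0, with Cd3g at 0.24, and without replicate 1 Cd3g stands at 0.39.

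The arrays of the IE-Cpr-null group were uneven in these genes. IE-Cpr-null replicate 1 was the lowest of its group in 8 of 11 probe sets and below every WT array in 6. For Cd3e, Ccl5 and Itgae the margin to the lowest WT array was narrow (-0.1529 against -0.1526, -0.0990 against -0.0963 and -0.0445 against -0.0386). Replicate 2 was above every WT array in 8 of 11, replicate 3 in 6 and replicate 4 in 8. Shares over all probe sets were not counted for these probe set counts, so they are not read as a trait of the lymphocyte genes. Over all probe sets, too, the interquartile range was wider on the IE-Cpr-null arrays (0.12 to 0.20) than on the WT arrays (0.061 to 0.10). By gene, replicate 1 was the lowest of all 8 arrays in 6 of the 10, against 18.2% of all genes and 6 of the 10 enterocyte genes. The mean of the 10 genes was -0.075, 0.025, -0.037 and 0.089 on WT replicates 1 to 4 and -0.076, 0.21, 0.14 and 0.23 on IE-Cpr-null replicates 1 to 4. Replicate 1 was thus as low as the lowest WT array, and the other 3 were above every WT array.

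Leaving out IE-Cpr-null replicate 1 widened most differences but left every probe set short of the threshold. All 3 remaining arrays then lay above every WT array in 4 of 11 probe sets, those of Cd3g, Gzma, Gzmb and Ccl5, against 5.0% of all probe sets. At an unadjusted p under 0.05, 9 of 11 were higher in limma, against 5.55% of all probe sets, and none of the 11 passed after adjustment (0.0868% of all probe sets did). Cd3g came closest, with a difference of 0.39 (SE 0.0622, adjusted p = 0.105). With array weights, which let limma count uneven arrays less, 7 of 11 were higher at an unadjusted p under 0.05, against 10.8% of all probe sets. None of the 11 passed there either, where 4.02% of all probe sets did, and the smallest adjusted p was again that of Cd3g (0.0677, difference 0.33). Without the muscle-rich arrays 5 of 11 did not overlap, against 6.72% of all probe sets. The count was 1 of 11 without the hepatocyte-rich arrays (4.74% of all probe sets), with WT replicate 2 left out (2.68%) and with IE-Cpr-null replicate 3 left out (3.01%). IE-Cpr-null replicate 1 was set apart after its values were seen, and these counts are a description.

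**Figure D3:**
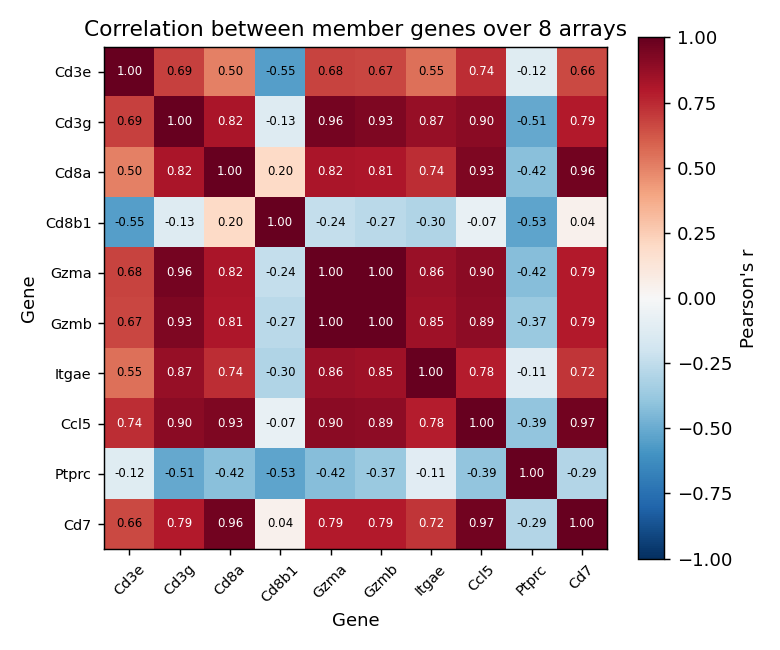
Each cell gives Pearson's r between the values of 2 genes over the 8 arrays, from blue (-1) to red (1). Gzma, Gzmb, Cd3g, Ccl5, Cd7, Cd8a and Itgae form a red block, while Cd8b1 and Ptprc have r near or below 0 with most of the others.

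Over the 8 arrays, 8 of the genes varied together. Over all 45 pairs of the 10 genes, r ran from -0.55 to 1.00 with a median of 0.69, and 30 pairs were above 0. Among the 28 pairs without Cd8b1 and Ptprc, r ran from 0.50 to 1.00 with a median of 0.81, and it was 1.00 for Gzma with Gzmb and 0.96 for Gzma with Cd3g. Without IE-Cpr-null replicate 1, the median r of those pairs was 0.85 over 7 arrays. Within the 4 WT arrays r ran from -0.70 to 0.99 with a median of 0.73, and 23 of 28 pairs were above 0. Within the 4 IE-Cpr-null arrays r ran from 0.56 to 1.00 with a median of 0.86. Cd8b1 and Ptprc were set aside after their values were seen. The points share arrays, normalization and centring, so these values describe the arrays and carry no p.

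The genes whose values most resembled the mean of the set were sought among 1159 other genes with an SD of at least 0.3 over the 8 arrays. The 8 with the highest Pearson r were Rab8b (r = 0.88), Slfn2 (0.86), Aqp3 (0.85), Lmbr1l (0.85), E430018J23Rik (0.83), Zbp1 (0.83), Pdlim2 (0.82) and Dqx1 (0.82). Rab8b encodes a small GTPase of membrane traffic, Aqp3 a water and glycerol channel, and Zbp1 a sensor of Z-form nucleic acids. Rab8b read between -0.10 and 0.048 in WT, and in IE-Cpr-null -0.14, 0.64, 0.54 and 0.57. Zbp1 read between -0.23 and 0.15 in WT, and in IE-Cpr-null -0.086, 1.23, 0.68 and 0.73. As in Cd3g, replicate 1 was the low array of its group, an order that the search for likeness to the set mean favoured. None of the 8 passed in limma, with adjusted p from 0.361 to 0.878.

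Further genes of T cells, cytotoxic cells and their epithelial partners were taken in 6 lists of 118 genes, of which 79 were measured. No gene of these lists passed in limma (0 of 79, and 3 at an unadjusted p under 0.05, Il7, Klrd1 and Rgs1), where 0.0288% of all genes passed and 8.69% had an unadjusted p under 0.05. With array weights 2 passed, both higher, Cd96 (0.40, adjusted p = 0.0444) and Il7 (0.94, adjusted p = 0.0243), where 5.63% of all genes passed. The 3 and the 2 genes were thus smaller shares of the 79 than the same calls were of all genes. The median difference over all genes was 0.016.

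Other genes of the T cell receptor and its signalling were measured in 17 of 24, with 10 higher and 7 lower and a median difference of 0.034. Cd96, a receptor of T and natural killer cells, was at -0.15, 0.51, 0.41 and 0.49 in IE-Cpr-null and between -0.086 and 0.21 in WT, a difference of 0.28 (SE 0.156). Lat, the adaptor that links the receptor to downstream signals, differed by 0.090 (SE 0.0696). Cd3d, the delta chain of CD3, chosen after its values were seen, was at -0.22, 0.26, 0.36 and 0.35 in IE-Cpr-null and between -0.17 and 0.24 in WT. Cd3d and Cd96 thus had the order of Cd3g, with IE-Cpr-null replicate 1 lowest of all arrays and the other 3 above every WT array. They were 2 of the 17 with this order, which 1.62% of all genes and 4 of the 10 lymphocyte genes had. Of the 4, Ccl5 had it by a narrow margin only. Others did not share it, such as Thy1, a T cell surface glycoprotein, whose IE-Cpr-null replicate 1 was the highest of its group (0.031).

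Other cytotoxic and natural killer receptor genes were measured in 19 of 25, with 12 higher and 7 lower and a median of 0.033. Klrd1, the CD94 chain of natural killer receptors, differed by -0.24 (SE 0.085, limma adjusted p = 0.463). It was at -0.26, -0.22, -0.32 and -0.092 in IE-Cpr-null and between -0.13 and 0.21 in WT. Serpinb9, an inhibitor of granzyme B, differed by -0.50 (SE 0.223), and its IE-Cpr-null arrays, between -0.98 and -0.17, were below every WT array, as in 3.0% of all genes. Both thus had lower means, opposite to the granzymes. Nkg7, a cytotoxic granule membrane gene chosen after its values were seen, was at -0.10, 0.29, 0.25 and 0.24 in IE-Cpr-null and between -0.086 and 0.10 in WT. Nkg7 and Fasl, 2 of the 19 genes (10.5%), had the order of Cd3g, which 1.62% of all genes had. Fasl was at -1.07, 0.21, 0.47 and 0.30 in IE-Cpr-null and between -0.23 and 0.15 in WT. Ifng, the interferon-gamma gene, stayed between -0.052 and 0.063 on all 8 arrays and followed the array medians as Cd8b1 did.

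Genes of homing and identity of intraepithelial lymphocytes were measured in 11 of 21, with 9 higher and a median of 0.031. Rgs1, a regulator of chemokine receptor signalling, differed by 0.28 (SE 0.112, limma adjusted p = 0.523), and was at 0.31, 0.29, 0.31 and 0.051 in IE-Cpr-null and between -0.32 and 0.14 in WT. Itgb7, the beta chain that pairs with CD103, differed by 0.21 (SE 0.143), with IE-Cpr-null replicate 2 at 0.56 and the other 3 between -0.045 and 0.032. Helper, regulatory and recirculating T cell genes were measured in 7 of 16, all 7 with a higher mean. Their median was 0.027, and 5 of the 7 (Cd4, Cd28, Il2ra, Ccr7 and Ctla4) followed the array medians. Klf2, a transcription factor of recirculating T cells, differed by 0.050 (SE 0.0393) and Cd28, a co-stimulatory receptor, by 0.040 (SE 0.0462). The values of the 5 genes that followed the array medians give no order between the genotypes. Klf2 followed the medians less closely (r = 0.54), and its groups overlapped.

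Epithelial ligands of intraepithelial lymphocytes were measured in 8 of 13, with 2 higher and 6 lower and a median of -0.064. Il7, a growth factor for lymphocytes, was at 0.11, 0.034, -0.074 and -0.066 in WT, and in IE-Cpr-null at 0.24, 0.16, 0.85 and 1.02. Every IE-Cpr-null array was above every WT array, as in 1.85% of all genes, with replicates 3 and 4 far above the rest. The difference was 0.57 (SE 0.198, limma adjusted p = 0.459). Il18, an epithelial cytokine that acts on lymphocytes, differed by -0.35 (SE 0.158) and its groups overlapped.

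Pan-leukocyte genes were measured in 17 of 19, with 8 higher and 9 lower and a median of -0.0025. Rac2, a GTPase of blood cells, differed by -0.18 (SE 0.13) and Coro1a, an actin-binding protein of leukocytes, by 0.11 (SE 0.0981). The list mean was lowest on WT replicate 1 (-0.16) and IE-Cpr-null replicate 1 (-0.17), and between -0.036 and 0.091 on the other 6 arrays. On IE-Cpr-null replicates 2 to 4 it was -0.036, 0.091 and -0.030, beside means of 0.21, 0.14 and 0.23 for the lymphocyte set. The difference between the lists was not tested.

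**Figure D4:**
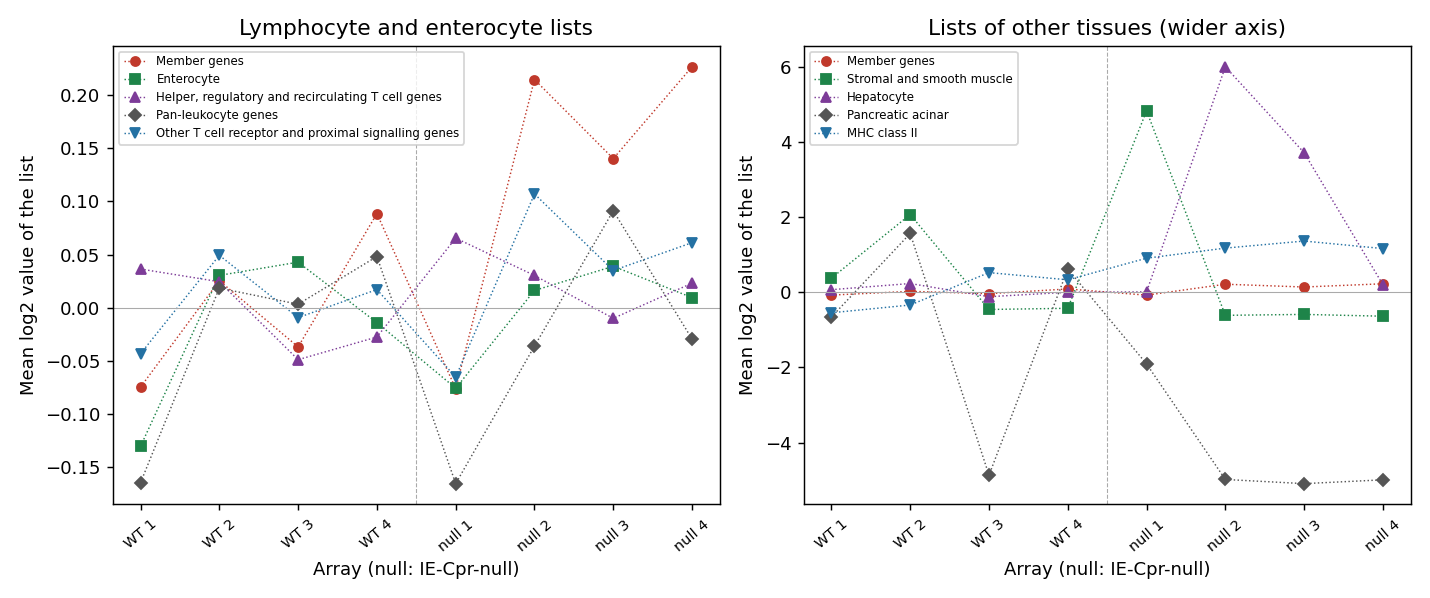
Points are the mean log2 value of a gene list on each array, with 4 WT arrays left of the dashed line and 4 IE-Cpr-null arrays right of it; the 2 panels have different axes. The lymphocyte genes lie at -0.076 on IE-Cpr-null replicate 1, where stromal and smooth muscle genes lie at 4.83, and at 0.14 to 0.23 on replicates 2 to 4.

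Other cell types moved with some of these arrays. IE-Cpr-null replicate 1, low in the lymphocyte genes, had a stromal and smooth muscle mean of 4.83 against -0.64 to -0.59 on the others of its group. WT replicate 2, with a stromal mean of 2.07, had a lymphocyte mean of 0.025, within the WT range. The 10 measured enterocyte genes averaged -0.13 to 0.043 in WT and -0.076 to 0.039 in IE-Cpr-null, lowest on replicate 1 of each genotype, the arrays with the lowest lymphocyte means. The mean of WT replicate 1 leaned on Cdx2, which was at -0.94 there, with the other enterocyte genes between -0.11 and 0.025. With the enterocyte mean taken from each array, an alternative chosen after seeing the data, the median difference of the 11 probe sets was 0.14. B cell and plasma cell genes (6 of 12 measured) averaged 0.94 on IE-Cpr-null replicate 3 and -0.25 to 0.026 on the others of its group. Macrophage, dendritic cell and granulocyte genes (14 of 16 measured) averaged -0.29 to 0.56 in WT and -0.66 to -0.17 in IE-Cpr-null. Goblet cell genes (6 of 8 measured) averaged 0.011 on IE-Cpr-null replicate 1, -0.24, -0.26 and -0.19 on replicates 2 to 4, and -0.051 to 0.086 in WT. Mast cell genes (3 of 7 measured) averaged 1.74 on IE-Cpr-null replicate 1, -0.083 to 0.57 on the others of its group and -0.17 to 0.16 in WT. The part of goblet, mast, stromal, hepatocyte, acinar and other leukocyte RNA in the lymphocyte values was not tested.

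MHC class II genes, which present peptides to T cells, averaged -0.55, -0.34, 0.52 and 0.33 on WT replicates 1 to 4 over their 7 measured members. They averaged 0.91 on IE-Cpr-null replicate 1, where the lymphocyte mean was -0.076, and 1.16 to 1.36 on replicates 2 to 4. IE-Cpr-null replicate 1 was the lowest of its group in both. In the class II genes it was above every WT array, and in the lymphocyte mean it was about level with the lowest WT array (-0.075 on WT replicate 1).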

How the data were processed

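Total RNA of isolated enterocytes, pooled from 2 mice, was labelled with biotin and hybridised to single-colour arrays, per the labels' protocols. The titles gave each array's genotype and number. No batch is named in the labels, and none was tested.

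The authors deposited log2 values per probe set, made with GCRMA per the submitters' processing notes; its version is not given in the sources used here. Each probe set was also centred, as the deposited values show: the WT median was 0 within 9.5e-07 in all 18443 probe sets. Signal over background is therefore unknown, and the number of arrays limits the precision.

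Probe sets were named from the platform annotation (16689 with 1 symbol, 616 with several, 1138 not named in it). Each probe set, and each gene as the mean of its probe sets, was tested with limma 3.58.1 in R 4.3.3 (lmFit and eBayes, 2 group means, two-sided, Benjamini-Hochberg over 18443 probe sets or 10401 genes, threshold 0.05), and the step was tested on simulated data. The 6249 probe sets left out in 1 alternative have IDs that mark probes shared between transcripts or genes. Named were all members, per related list the 2 genes with the smallest p where none passed, and the 8 genes most like the set. Cd3d, Thy1, Nkg7, Fasl, Ifng, Cdx2 and the genes counted as following the array medians were named after their values were seen. Members and lists were chosen with earlier results of these data known. Same-numbered WT and IE-Cpr-null arrays correlated at -0.058, -0.041, 0.26 and 0.13 in their deviations from the group means. The highest r of each WT array with an IE-Cpr-null array of another number was 0.095, 0.34, 0.083 and 0.039. The same number thus gave the higher r for replicates 3 and 4 only, and these values do not settle whether the numbers pair the arrays. Alternatives were quantile normalization, median centring, array weights, a replicate block, a robust prior, filters on shared probes and on low SD, the most variable probe set per gene, enterocyte scaling and left-out arrays.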

Additional observations from a re-analysis of the deposited data

Results flagged for a closer look

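Among 24 groups of 4 arrays examined (11 probe sets and the mean of the set, in each genotype), 2 held an array far from the other 3, where chance gives about 1 in 20 groups, or 1.2. Cd3g was -0.19 on IE-Cpr-null replicate 1 and between 0.34 and 0.42 on the other IE-Cpr-null arrays. Itgae was 0.29 on WT replicate 4 and between -0.039 and 0.017 on the other WT arrays.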

How the results depend on the processing

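No member probe set passed the threshold in any of 18 alternatives, and no member gene in any of 19; the smallest adjusted p was 0.0677 over probe sets and 0.0557 over genes, both in limma with array weights. The median difference over the probe sets was 0.10 to 0.24 with 1 array left out, 0.080 without the hepatocyte-rich arrays and 0.10 after quantile normalization. With the replicate block it was 0.15 and again 0 members passed, so the block changed no call. The count of probe sets with every IE-Cpr-null array above every WT array was 0 to 4 with 1 array left out (4 without IE-Cpr-null replicate 1, 1 without WT replicate 2 or IE-Cpr-null replicate 3), 5 without the muscle-rich arrays and 1 without the hepatocyte-rich arrays; fewer arrays overlap less by construction, and the shares over all probe sets rose from 1.64% to between 2.68% and 6.72% in these settings. In the related lists, genes past the threshold went from 0 to 2 of 79 with array weights, while over all 10401 genes they went from 3 to 586; the cause was not tested. Cd3e turned to -0.028 without the hepatocyte-rich arrays. Cd8b1, near 0 throughout, turned to -0.0035 with quantile normalization and with median centring, -0.0053 with enterocyte scaling, and lay between -0.0028 (WT replicate 3 left out) and 0.020 with 1 array left out, at -0.00031 when IE-Cpr-null replicate 1 was the one. All other member differences kept their sign in every alternative in which they were fitted.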
